A study of Homo sapiens with 4 samples.

Results

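The 10 genes described here are the ID genes ID1, ID2, ID3 and ID4, the ligand genes BMP2, BMP4 and BMP7, and the pathway genes SMAD6, SMAD9 and BAMBI, which are read as a gauge of bone morphogenetic protein (BMP) signalling. They were picked by symbol from the 19732 gene symbols of the A549 table, with earlier results of these data known, so their differences below are a description. The study compared A549 cells, a human lung adenocarcinoma line, with knockdown of RBM4, an RNA-binding protein of splicing and translation, against control A549 cells, both grown in culture, with 1 library per group. The same pair of groups in H1299, another human lung cancer line, was not analysed here, because the 3 columns of its table matched no sample label. The labels do not say which reagent was used for the knockdown or the control, beyond the letters sh in the sample title, and whether a culture was 1 clone or a pool is not given in the sources used here.

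BMP ligands are secreted dimers that bind a pair of serine/threonine kinase receptors. The receptors phosphorylate SMAD1, SMAD5 and SMAD9, which enter the nucleus with SMAD4 and bind DNA, and ID1, ID2 and ID3 are among the genes they switch on most directly. ID proteins carry a helix-loop-helix but no DNA-binding region, so they pair with the E proteins (TCF3, TCF4 and TCF12) and keep them from DNA, which holds back differentiation and, in fibroblasts, the cell-cycle inhibitors of senescence. SMAD6 and BAMBI are feedback inhibitors that BMP signalling itself induces: SMAD6 blocks the signal-carrying SMADs, and BAMBI is a receptor-like protein without a kinase.

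The promoters of ID1 and ID4, which had the lowest differences of the 7 genes with a measurable level, are shown beside that of SMAD6, an inhibitor that differed little. Each sequence is the 250 bases before the RefSeq start (GRCh38.p14, plus strand, chr20:31605039-31605288 for ID1, chr6:19837120-19837369 for ID4 and chr15:66701986-66702235 for SMAD6), 5′ to 3′. Capitals mark the SMAD box GTCT, or AGAC on the other strand.
ID1: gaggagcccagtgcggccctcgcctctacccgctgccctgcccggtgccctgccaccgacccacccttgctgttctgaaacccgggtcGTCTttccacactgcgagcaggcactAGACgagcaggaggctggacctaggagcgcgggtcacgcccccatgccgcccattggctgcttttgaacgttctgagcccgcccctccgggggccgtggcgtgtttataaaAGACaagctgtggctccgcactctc
ID4: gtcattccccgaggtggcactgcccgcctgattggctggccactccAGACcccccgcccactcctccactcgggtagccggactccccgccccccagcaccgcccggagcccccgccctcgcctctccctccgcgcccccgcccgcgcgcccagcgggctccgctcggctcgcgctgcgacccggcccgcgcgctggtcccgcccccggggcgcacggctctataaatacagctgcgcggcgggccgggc
SMAD6: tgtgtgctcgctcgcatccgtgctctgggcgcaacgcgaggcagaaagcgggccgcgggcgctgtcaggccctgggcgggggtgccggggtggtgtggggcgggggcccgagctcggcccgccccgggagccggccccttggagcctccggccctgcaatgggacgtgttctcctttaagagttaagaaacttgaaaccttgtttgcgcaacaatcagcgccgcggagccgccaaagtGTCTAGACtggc
In the window of 300 bases that also takes in the first 50 bases after the start, ID1 had 3 SMAD boxes, ID4 had 1 and SMAD6 had 2. Those counts are ordinary, since 84.0% of 35116 human promoter windows of that length held at least 1, with a median of 2. The pair in SMAD6 lies end to end and forms the palindrome GTCTAGAC, 12 bases before the start, which 0.202% of the windows held and no other window of the 8 matched genes did. The GC-rich element GGCGCC, searched as a palindrome on both strands, is tied to BMP responses. It was present in 3 copies in the BAMBI window and in 2 copies in 1 of the 3 BMP4 windows, and in none of the ID or SMAD windows, against 19.2% of all windows. These letters are matches in a short window, not sites, and BMP-responsive elements of ID1 known from other work lie outside it. ID1 and ID4 both held TATAAA (or TTTATA), present in 11.5% of all windows, and the ID2 and ID3 windows did not. All 250 bases before the RefSeq start of ID3 lay in exons of that gene in the GENCODE annotation. The number was 202 for ID2, 6 for ID1 and 0 for ID4. Much of the ID2 and ID3 windows may thus not be promoter, and letters absent there are not read as a promoter difference.

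Values are FPKM, fragments scaled to transcript length and to all mapped fragments, and how deeply each library was sequenced is unknown, so no counting interval can be given. FPKM added up to 622366 in the knockdown and 671529 in the control library, and mitochondrial transcripts held 21.7% in the knockdown and 18.6% in the control library. RBM4 itself had 30.6 FPKM in the library read as the knockdown, against 59.4 FPKM in the control library, a log2 difference of -0.93, which fell short of 2-fold. The names of the 2 columns are the sole basis for calling one of them the knockdown. All 5 epithelial markers were at 1 FPKM or more in at least 1 library, and summed to 1875 FPKM in the knockdown and 3539 FPKM in the control library. KRT8 had 888 FPKM in the knockdown and 1646 FPKM in the control library, and KRT18 had 912 FPKM in the knockdown and 1853 FPKM in the control library. KRT19 went the other way, with 64.9 FPKM in the knockdown and 29.6 FPKM in the control library. EPCAM had 2.75 FPKM in the knockdown and 2.74 FPKM in the control library. CDH1 had 6.54 FPKM in the knockdown and 7.70 FPKM in the control library. The part of these differences in the results below was not tested. The lung markers NKX2-1 and SFTPB were listed at 0 in both and SFTPC did not reach 1 FPKM, so lung epithelial identity was not visible in these 3 markers. Of markers of other cells, 2 of 8 fibroblast genes (COL1A1 and THY1), none of 5 endothelial genes and 1 of 5 blood genes (CD14) reached 1 FPKM.

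ID1, ID2 and ID4 were lower in the knockdown library, by differences of at least 2-fold, while ID3 was nearly level. With 1 library per group no difference has a replicate error and none was tested. In these bulk cultures, fewer cells of a type and less RNA per cell cannot be told apart. Each difference is log2(FPKM + 1) in the knockdown minus log2(FPKM + 1) in the control library, which shrinks the differences of sparse genes, and it was taken for the 12230 genes at 1 FPKM or more in either library. Of the 10 genes, 7 were measured by that rule, and 3 of those 7 were lower by at least 2-fold and none higher. Among all measured genes, 7.21% differed by that size, 2.25% lower and 4.96% higher, and since the 10 genes were proposed with this contrast known, nothing is read from their count. ID2, at -1.06, lay just inside the 2-fold size and BMP4, at -0.92, just outside it.

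**Figure D1:**
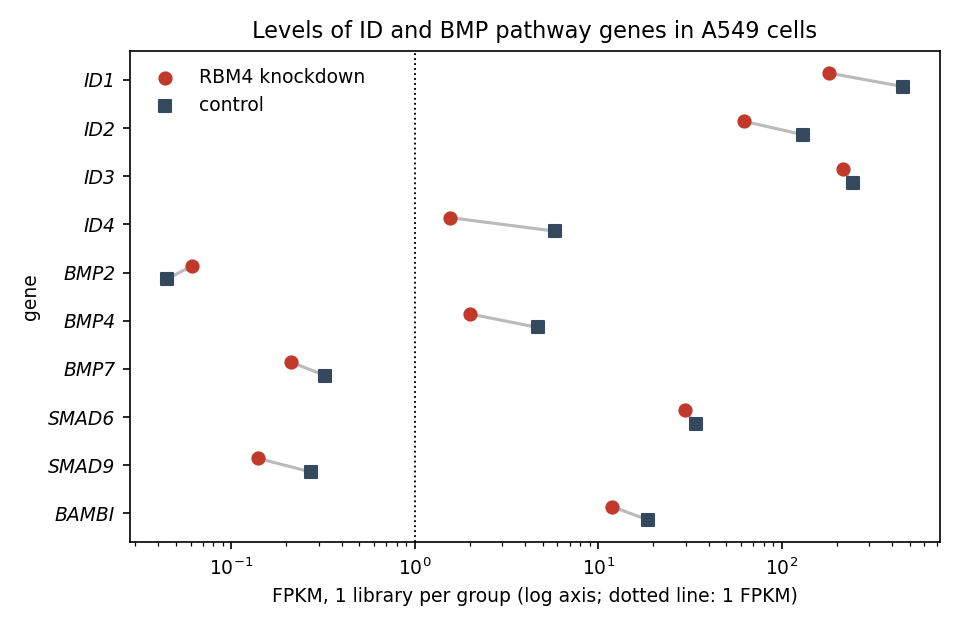
FPKM of the 10 genes on a log axis in the A549 RBM4 knockdown library (circles) and the control library (squares), 1 library each, with a dotted line at 1 FPKM. The knockdown point lies left of the control point for 9 genes, and BMP2, BMP7 and SMAD9 lie below 1 FPKM in both libraries.

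ID1 (ENSG00000125968, hg38, chromosome 20, plus strand, 31605283 to 31606515) was measured at 181 FPKM in the knockdown library, against 458 FPKM in the control library, a log2 difference of -1.33. It thus stood at 39.6% of its control level, and 0.826% of measured genes had a lower difference. By level ID1 ranked 381 among all genes of the knockdown library, against 199 in the control library. Of its 2 listed transcripts, the spliced form with 2 exons, ENST00000376112, had 157 FPKM in the knockdown and 413 FPKM in the control library, a log2 difference of -1.39. The unspliced form with 1 exon, ENST00000376105, had 23.97 FPKM in the knockdown and 44.9 FPKM in the control library, a difference of -0.88. Both forms were lower, and the unspliced one, which keeps the intron and encodes a different end of the protein, made up 13.2% of the gene's FPKM in the knockdown and 9.81% in the control library.

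ID2 (ENSG00000115738, chromosome 2, plus strand, 8678845 to 8684453), the family member studied as a partner of the retinoblastoma protein, had 62.3 FPKM in the knockdown library, against 131 FPKM in the control library (log2 difference -1.06). A single transcript, ENST00000396290, carried 99.5% of it in the knockdown and 97.97% in the control library. The antisense gene ID2-AS1 overlaps its exons on the other strand, and since no strand setting is given, reads from the pair may not be told apart. ID4 (ENSG00000172201, chromosome 6, plus strand, 19837386 to 19840684), known from neural development, was sparse, at 1.55 FPKM in the knockdown library and 5.80 FPKM in the control library (-1.41). That was the lowest difference of the 7 measured genes, from the gene with the lowest FPKM of the 4 ID genes in both libraries.

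ID3 (ENSG00000117318, chromosome 1, minus strand, 23557918 to 23559794) stood apart from its relatives. It had 215 FPKM in the knockdown library, against 243.7 FPKM in the control library, a log2 difference of -0.18, and 37.1% of measured genes had a lower one. The 4 genes together had 460.3 FPKM in the knockdown and 839 FPKM in the control library, so that the ID total was 54.9% of its control level. ID3 held 46.7% of that total in the knockdown library and 29.1% in the control library, and ID1 held 39.4% in the knockdown library and 54.6% in the control library. The leading ID transcript was therefore ID3 in the knockdown library and ID1 in the control library, with 1.18 FPKM of ID3 per FPKM of ID1 in the knockdown and 0.532 in the control library. That ratio within a library does not depend on how the libraries are scaled.

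**Figure D2:**
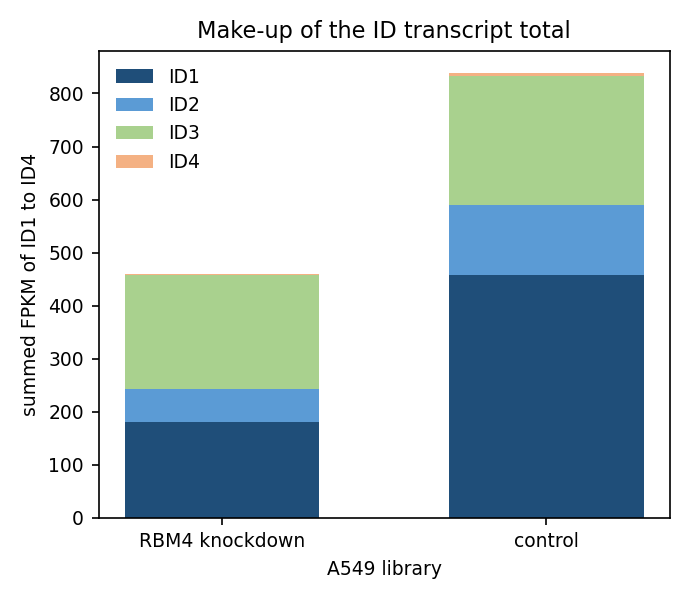
Stacked FPKM of ID1, ID2, ID3 and ID4 in the A549 RBM4 knockdown library (left) and the control library (right), 1 library each. The total is 460.3 FPKM in the knockdown and 839 FPKM in the control library, and the ID3 segment is of similar height in both.

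Among genes of high level, more were lower than higher by 2-fold in FPKM as deposited, and this split was not computed after rescaling. Of the 1743 genes at an average of 50 FPKM or more, a group chosen after the data were seen because it holds ID1, ID2 and ID3, 8.09% differed by 2-fold, 4.7% lower and 3.38% higher. Within that group 44 genes had a lower difference than ID1, 72 than ID2 and 884 than ID3. Over both A549 libraries, the 5 genes closest to ID1 in log2 level, among 7632 candidates at 10 FPKM or more, were HIST1H1D, HIST1H4A, HIST1H2AH, PABPC1 and SLC7A5, at distances of 0.10 to 0.20. HIST1H1D, HIST1H4A and HIST1H2AH encode replication-dependent histones, PABPC1 a poly(A)-binding protein and SLC7A5 an amino acid transporter. HIST1H1D, the closest, had 169.8 FPKM in the knockdown and 444 FPKM in the control library. Many histone genes have close copies within their own family, so their single levels may be uncertain, and likeness over 2 libraries is a weak measure.

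**Figure D3:**
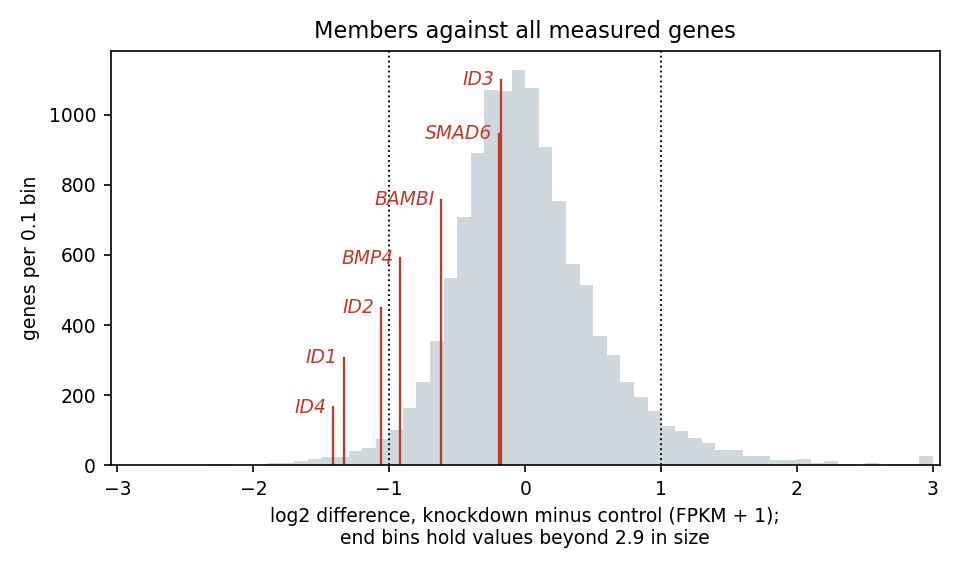
Histogram of log2 differences, knockdown minus control, of the 12230 measured genes in bins of 0.1, with dotted lines at 2-fold and vertical lines for the 7 measured genes of the set. ID4, ID1 and ID2 lie beyond the lower line, BMP4 and BAMBI between it and the bulk, and SMAD6 and ID3 within the bulk, whose quartiles are -0.32 and 0.29.

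The ligands of the set were scarce in A549. BMP4 (ENSG00000125378, chromosome 14, minus strand, 53949736 to 53958761) had 1.998 FPKM in the knockdown library and 4.67 FPKM in the control library, a log2 difference of -0.92 that fell short of 2-fold and reached -1.19 with a pseudocount of 0.1. It was spread over 8 listed transcripts. The leading one in the control library, ENST00000559087, had 0.342 FPKM in the knockdown and 2.32 FPKM in the control library, whereas the leading one in the knockdown library, ENST00000609748, a fragment of 1 exon, had 0.835 FPKM in the knockdown and 0.256 FPKM in the control library. At these levels the transcript make-up of BMP4 cannot be read. BMP2 (ENSG00000125845, chromosome 20, plus strand, 6767664 to 6780280), a ligand first known from bone, had 0.0614 FPKM in the knockdown and 0.0444 FPKM in the control library. BMP7 (ENSG00000101144, chromosome 20, minus strand, 57168748 to 57266629), a ligand of kidney and epithelium, had 0.211 FPKM in the knockdown and 0.326 FPKM in the control library. Both were below the minimum in both libraries, and no difference is given for them. With ID1, BMP2 and BMP7 are the members of the set on chromosome 20, far apart from one another.

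The measured inhibitors of the set had differences closer to 0 than that of ID1. SMAD6 (ENSG00000137834, chromosome 15, plus strand, 66702228 to 66782848) had 29.6 FPKM in the knockdown and 33.99 FPKM in the control library, a log2 difference of -0.20. Its longer transcript, ENST00000288840, carried 87.4% of the FPKM in both libraries, so the make-up of SMAD6 was the same at this precision. BAMBI (ENSG00000095739, chromosome 10, plus strand, 28677342 to 28682939) had 11.9 FPKM in the knockdown and 18.8 FPKM in the control library (-0.62), and 8.61% of measured genes had a lower difference. SMAD9 (ENSG00000120693, chromosome 13, minus strand, 36844831 to 36920765), the least abundant of the signal carriers here, had 0.141 FPKM in the knockdown and 0.271 FPKM in the control library, below the minimum. In both libraries nearly all of the SMAD9 value came from ENST00000399275, which begins within the gene.

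No exon of the 10 genes overlapped an exon of another gene on the same strand in the GENCODE annotation. The 7 measured genes differed in the order ID4, ID1, ID2, BMP4, BAMBI, SMAD6 and ID3, from lowest to highest, and without replicates no neighbours in that order can be called different. Leaving mitochondrial genes out, with both libraries then rescaled to the same total, moved the median over all genes to 0.11, against -0.04 as deposited. Rescaling to the same total alone moved it to 0.06. With mitochondrial genes left out, ID2 was at -0.90, short of 2-fold, and ID3 at -0.02. Relative to the median of 0.11 under that setting, ID1 was at -1.28, ID2 at -1.01 and ID3 at -0.13.

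**Figure D4:**
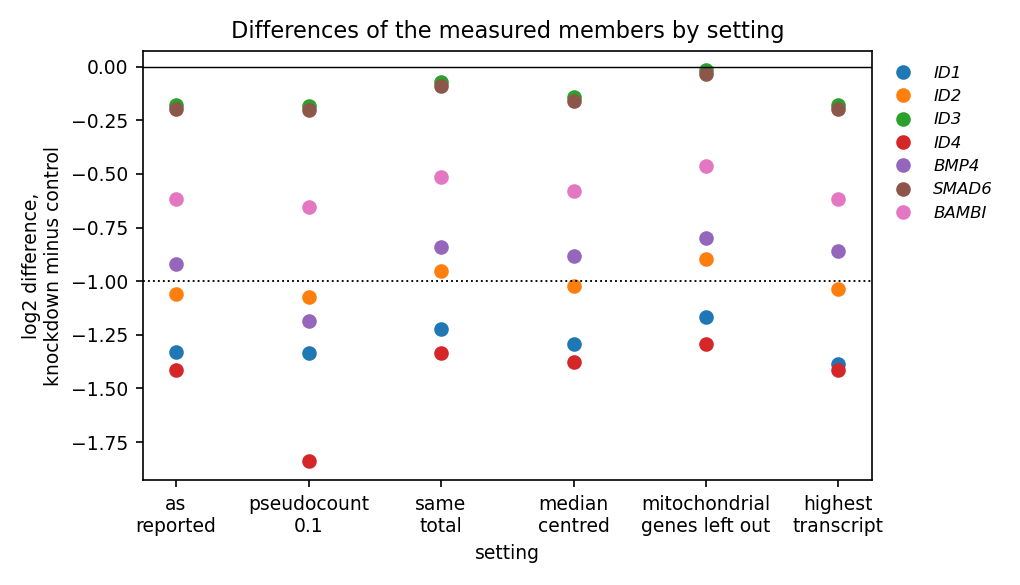
Log2 differences, knockdown minus control, of the 7 measured genes under 6 settings, with a dotted line at 2-fold lower. ID1 and ID4 stay below the line in all 6. ID2 lies above it after rescaling to the same total (-0.95) and with mitochondrial genes left out before that rescaling (-0.90). BMP4 lies below it only with a pseudocount of 0.1 (-1.19).

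Beyond the 10 genes, 83 other genes were placed in 8 lists by their role in BMP signalling or ID function. Of these, 44 were measured, with a median difference of 0.24, and 4 were higher and 1 lower by at least 2-fold, or 9.09% and 2.27% against 4.96% and 2.25% of all measured genes. The higher ones were GREM1, FSTL1, PMEPA1 and TCF4, and the lower one was ATOH8. With mitochondrial genes left out 8 were higher and 1 lower, and the shares of all measured genes were then 6.62% higher and 1.44% lower. Those 8 include FST, which reached 1 FPKM in the knockdown library alone, so its sign was fixed by the minimum.

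The remaining measured ligands and the measured receptors showed no difference of 2-fold, beside 7.21% of all measured genes. Nothing is read from that in so few genes. BMP6, a ligand of iron control in liver, had 5.88 FPKM in the knockdown and 3.52 FPKM in the control library (0.61), and BMP8B, which has the close copy BMP8A and is uncertain, had 3.83 FPKM in the knockdown and 3.84 FPKM in the control library. Of 13 ligand genes 3 were measured. The 8 measured genes of 12 receptors and co-receptors had a median of 0.04, with 4 above and 4 below 0. Their extremes were the type I receptor gene BMPR1A, with 12.6 FPKM in the knockdown and 18.8 FPKM in the control library (-0.55), and the type II receptor gene BMPR2, with 23.3 FPKM in the knockdown and 15.97 FPKM in the control library (0.52). BMPR1B lay at -0.18 and the co-receptor gene RGMB at 0.25. Receptor transcripts were thus present in both libraries, and ACVR2A and TGFBR3 changed sign when the libraries were rescaled to the same total.

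Secreted antagonists bind BMPs outside the cell. Of 16 listed, 7 were measured, among them FST, which passed the minimum through the knockdown library alone and so had to lie above 0. The other 6 reached 1 FPKM in both libraries, and all 6 lay above 0, with a median of 0.92 beside -0.04 for all measured genes. GREM1 and FSTL1 passed 2-fold upwards. With mitochondrial genes left out 5 of the 7 did, FST with its fixed sign among them. The share of all measured genes that passed 2-fold upwards was then 6.62%, against 4.96% as deposited. GREM1, which encodes gremlin, a trap for BMP2 and BMP4, had 28.1 FPKM in the knockdown library, against 10.6 FPKM in the control library (1.33). FSTL1, a follistatin-like glycoprotein gene, had 116.8 FPKM in the knockdown library, against 40.8 FPKM in the control library (1.49). The lowest of the list were NBL1 at 0.15 and TWSG1, a modulator that can act either way, at 0.19. The classical antagonist genes NOG and CHRD were below 1 FPKM in both libraries. Without the minimum, 10 of the 13 antagonist genes with any value were above 0 and the median was 0.20.

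The carriers of the signal were at hand. SMAD5 had 36.3 FPKM in the knockdown and 28.4 FPKM in the control library (0.35), and SMAD1 had 6.42 FPKM in the knockdown and 7.46 FPKM in the control library (-0.19). SMAD4, the partner shared with TGF-beta signalling, had 32.4 FPKM in the knockdown and 22.8 FPKM in the control library (0.49), which turned to -0.43 when the highest transcript stood for the gene. All 10 intracellular inhibitors were measured, with a median of 0.36. PMEPA1, a membrane adaptor that holds back SMAD signalling, had 317 FPKM in the knockdown and 99.5 FPKM in the control library (1.66), and the ubiquitin ligase gene SMURF2 had 30.1 FPKM in the knockdown and 18.3 FPKM in the control library (0.69). BAMBI and the corepressor gene SKI, at -0.57, were the lowest of that list.

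Other reported BMP targets lay on both sides of 0. Of 16, 8 were measured, with a median of -0.17, 3 above and 5 below 0. None was higher and 1 was lower by 2-fold, beside 2.25% of all measured genes lower. ATOH8, a helix-loop-helix factor gene induced by BMP in liver and endothelium, had 6.92 FPKM in the knockdown library, against 20.5 FPKM in the control library (-1.44), close in size to ID1. GATA3 had 2.15 FPKM in the knockdown and 4.77 FPKM in the control library (-0.87). On the other side, TBX2 had 3.91 FPKM in the knockdown and 1.72 FPKM in the control library (0.85), and the homeobox gene MSX1 had 4.00 FPKM in the knockdown and 1.98 FPKM in the control library (0.75). Many of these targets are used in other tissues, and 8 of the 16 were below 1 FPKM in both libraries.

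**Figure D5:**
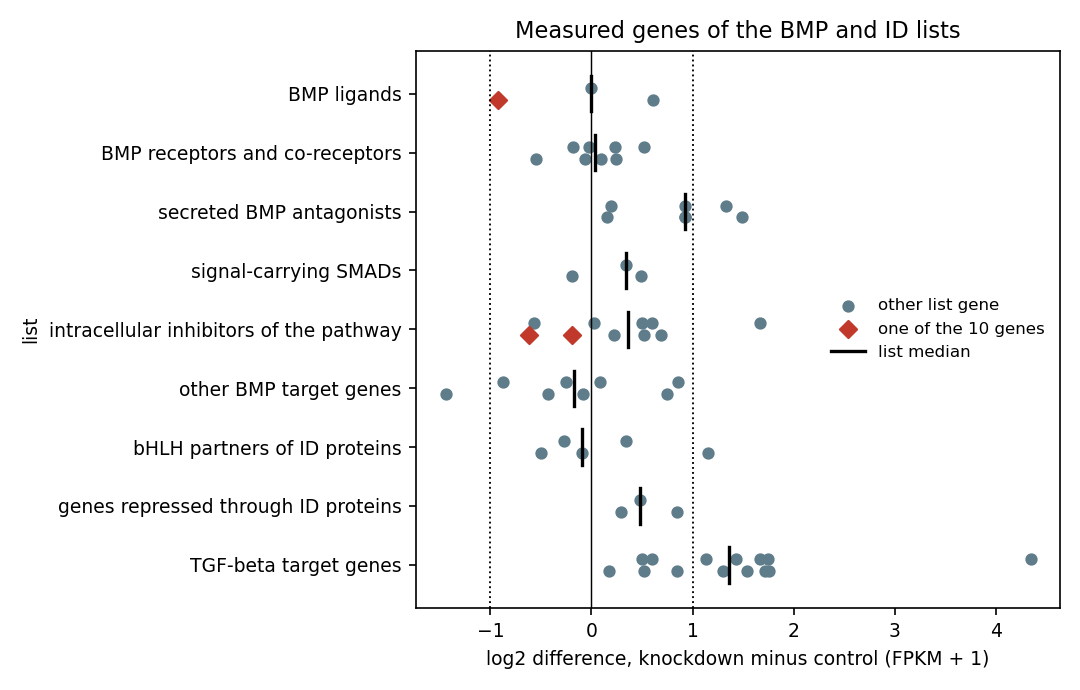
Log2 differences, knockdown minus control, of the measured genes of 9 lists, with diamonds for genes of the set of 10, black bars for list medians and dotted lines at 2-fold. The points of the secreted antagonists and of the TGF-beta target genes lie above 0, and those of FST, SNAI2, ITGB6 and CDKN1C had to, since they passed the minimum through the knockdown library alone. Receptors lie on both sides of 0.

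The E proteins that ID proteins bind were not lower as a sum. TCF4 had 14.5 FPKM in the knockdown library, against 6.01 FPKM in the control library (1.15), TCF12 lay at 0.34 and TCF3 at -0.27. Summed over these 3 genes, FPKM was 85.5 in the knockdown and 70.3 in the control library. The libraries thus held 5.38 FPKM of ID transcripts per FPKM of E protein transcripts in the knockdown and 11.9 in the control library, a ratio of transcripts that says nothing of protein. With the highest transcript in place of the sum, TCF4 lay at 0.77, short of 2-fold. Among 13 helix-loop-helix partners 5 were measured, the lowest being TWIST2 at 9.60 FPKM in the knockdown and 13.98 FPKM in the control library (-0.50).

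Of 5 genes that ID proteins are reported to hold down, 3 were measured. None reached 2-fold as deposited, beside 7.21% of all measured genes. CDKN1A, the p21 cell-cycle inhibitor gene, lay at 0.84, and it passed 2-fold, at 1.00, with mitochondrial genes left out. THBS1, a matrix glycoprotein gene, lay at 0.30. CDKN1C, the p57 inhibitor gene, had 1.17 FPKM in the knockdown and 0.552 FPKM in the control library, so it was measured through the knockdown library alone and its sign was fixed by the minimum. CDKN2A and CDKN2B were listed at 0 in both libraries, so the p16 and p15 arm of this regulation could not be read.

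TGF-beta signals through SMAD2 and SMAD3 in place of SMAD1, SMAD5 and SMAD9, and in epithelial cells it is known to lower ID1. Whether it has a part in the ID1 difference here was not tested. All 14 listed target genes of TGF-beta were measured, with a median of 1.36. Of them, 9 were higher by at least 2-fold, beside 4.96% of all measured genes. SNAI2 and ITGB6 passed the minimum through the knockdown library alone and so had to lie above 0. The other 12 all lay above 0, with the same median of 1.36, and 8 of them were higher by 2-fold. Of all measured genes, 53.4% lay below 0. The list was written with earlier results of these data known and shortened afterwards, so its count is a description of the genes left on it. Of these, SMAD7, SKIL and PMEPA1 are also in the inhibitor list. TAGLN, an actin-binding protein gene, lay at 4.34. TGFBI, a matrix protein gene named for its induction by TGF-beta, had 1584 FPKM in the knockdown library, against 469 FPKM in the control library (1.75), while the ligand gene TGFB2 at 0.17 and SMAD7 at 0.50 were the lowest. Of the fibroblast markers, THY1 had 25.98 FPKM in the knockdown and 5.73 FPKM in the control library, and COL1A1 is itself on the TGF-beta list. The 8 fibroblast markers summed to 36.5 FPKM in the knockdown and 8.67 FPKM in the control library, with DCN listed at 0 in both and COL1A2, COL3A1, PDGFRA, PDGFRB and LUM below 1 FPKM in both. Their part in the list's difference was not tested.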

How the data were processed

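The authors deposited FPKM per protein-coding transcript. Build hg38 and the tools TopHat, Cufflinks and CASAVA (version 1.8.2) are named in the submitters' processing notes, and their roles, the annotation, any strand setting and any filter are not given in the sources used here. This unit was read from the file name and fitted the values. The A549 table has 2 columns, matched by name alone: the bare line name was read as the control, the name with an added number as the knockdown. A total of 3 columns of the H1299 table matched no label and were not used.

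FPKM of 79989 transcripts was summed per symbol (26 symbols joined 2 gene identifiers). The minimum was 1 FPKM in either library, the difference was log2(FPKM + 1) knockdown minus control, and a size of 1 counted as 2-fold. With 1 library per group there was no test. Positions came from GENCODE 29 on the same build, matching 99.5% of transcripts. RefSeq promoters matched 8 of the 10 genes, not BMP2 and BMP7. The genes and lists were chosen with earlier results of these data known, and 1 gene was later taken out of the TGF-beta list and is not reported here. Named were the 10 genes, RBM4, the 2 highest and 2 lowest of each list and the 5 genes nearest to ID1; other genes and transcripts were named after their values were seen. Python 3.11.15, pandas 2.3.3 and numpy 2.4.6 were used.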

Additional observations from a re-analysis of the deposited data

How the results depend on the processing

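No paired analysis was possible because each group has 1 library and the labels give no replicate numbers; for the same reason no library could be left out. All 7 measured genes of the set kept a difference below 0 under a pseudocount of 0.1, the same total, median centring, mitochondrial genes left out and the highest transcript per gene. Wherever mitochondrial genes were left out, both libraries were also rescaled to the same remaining total. ID2 lost its 2-fold size at the same total (-0.95) and with mitochondrial genes left out (-0.90), and BMP4 gained it with a pseudocount of 0.1 (-1.19). The ID total lay at -0.86, and at -0.70 with mitochondrial genes left out, a setting added after the data were seen.

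Genes differing by 2-fold numbered 882, with 607 higher and 275 lower (68.8% higher). With a pseudocount of 0.1 they were 1403, with 985 higher and 418 lower. The lower count was 176 with mitochondrial genes left out, where 82.2% of the calls were higher, and the share was 78.6% at the same total. Among genes at 50 FPKM or more, also added later, 141 differed. Of the other BMP and ID list genes, 4 were higher and 1 lower as reported, 7 higher and 2 lower with a pseudocount of 0.1, and 8 higher with mitochondrial genes left out. FST, whose sign was fixed by the minimum, is among the 7 and the 8. The shares of all measured genes were 4.96% higher and 2.25% lower as reported. They were 8.05% higher and 3.42% lower with a pseudocount of 0.1, and 6.62% higher with mitochondrial genes left out. The TGF-beta count of 9 stayed within 8 to 10, and was 8 with a minimum of 1 FPKM in both libraries, a setting also added later. Depth is unknown, so the precision of genes near 1 FPKM, such as ID4 and BMP4, cannot be given.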
